A study of Mus musculus with 32 samples.

Results

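The receptors for prostaglandins and thromboxane, the prostanoid receptors, were followed in mice that carried the MCG 101 tumor. The family was taken as the 8 genes Ptger1, Ptger2, Ptger3, Ptger4, Ptgir, Tbxa2r, Ptgfr and Ptgdr, taken by name as a family, out of 45616 named features on the array. All 8 had a probe, and 7 were well above background on enough arrays to be tested in at least 1 comparison. Ptgdr2, the second receptor for prostaglandin D2, which belongs to another receptor family, is set beside them.

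MCG 101 cells, a transplantable mouse sarcoma, were implanted in hosts with intact EP2 (labelled EP2+/+) and in EP2 knockout hosts, and RNA came from the tumor and from the tumor stroma. EP2 is the protein that Ptger2 encodes. There were 8 arrays of stroma and 8 of tumor for either genotype, which makes 4 groups, and in every group 4 arrays were labelled female and 4 male. The same tumor cells went into both genotypes, so the knockout label describes the host and not the implanted cells. Strain, age and time after implantation are not given in the sources used here, nor is it stated that the arrays of a group came from separate animals, so p-values measure the spread between these arrays.

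Prostanoids are short-lived lipids that cells make from arachidonic acid and that act on nearby cells through G protein-coupled receptors. EP2 (Ptger2), EP4 (Ptger4) and the prostacyclin receptor IP (Ptgir) couple to Gs and raise cAMP, as does the prostaglandin D2 receptor DP1 (Ptgdr). EP3 (Ptger3) couples mainly to Gi and lowers cAMP, while EP1 (Ptger1), the thromboxane receptor TP (Tbxa2r) and the prostaglandin F receptor FP (Ptgfr) act through calcium, TP and FP by way of Gq. In tumors prostaglandin E2 is best known for its action on immune cells, vessels and the tumor cells themselves.

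The stretches before the start of 4 receptor genes are shown first, since these are the receptors whose levels the results turn on. Each runs 5' to 3' on the gene's own strand and ends at the base before the annotated gene, as RefSeq gives it on GRCm38.p6. Capitals mark a GC box (GGGCGG, or CCGCCC on the other strand) or a CCAAT box (CCAAT, or ATTGG on the other strand). The stretches are chr14:44987861-44988110 (plus strand) for Ptger2, chr3:157566626-157566820 (plus strand, 195 bases) for Ptger3, chr3:151837529-151837778 (minus strand) for Ptgfr and chr7:16906240-16906489 (plus strand) for Ptgir, 250 bases each but for Ptger3.
Ptger2: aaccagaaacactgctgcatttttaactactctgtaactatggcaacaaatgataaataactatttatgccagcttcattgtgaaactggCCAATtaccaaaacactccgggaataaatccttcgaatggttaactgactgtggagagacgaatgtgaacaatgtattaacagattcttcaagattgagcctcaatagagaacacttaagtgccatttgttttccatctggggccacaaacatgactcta
Ptger3: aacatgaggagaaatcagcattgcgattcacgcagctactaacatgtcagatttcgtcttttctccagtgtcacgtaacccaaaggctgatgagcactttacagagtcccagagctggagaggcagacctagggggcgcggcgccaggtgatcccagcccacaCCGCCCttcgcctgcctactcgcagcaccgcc
Ptgfr: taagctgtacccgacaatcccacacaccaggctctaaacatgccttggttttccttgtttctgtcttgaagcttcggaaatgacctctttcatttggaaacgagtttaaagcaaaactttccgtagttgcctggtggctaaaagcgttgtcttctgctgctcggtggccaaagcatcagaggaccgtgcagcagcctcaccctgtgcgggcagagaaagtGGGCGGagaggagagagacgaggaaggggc
Ptgir: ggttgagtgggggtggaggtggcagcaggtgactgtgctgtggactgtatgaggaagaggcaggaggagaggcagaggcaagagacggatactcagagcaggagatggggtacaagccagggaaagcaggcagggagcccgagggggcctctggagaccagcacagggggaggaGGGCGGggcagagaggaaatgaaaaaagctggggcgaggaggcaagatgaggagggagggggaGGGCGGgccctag
The Ptger2 stretch is poor in G and C, at 38.0%, which is the 8.5th percentile of 32851 mouse promoters, and holds 1 CCAAT box and no GC box. Ptgir lies at the other side, with 63.6% G and C and 2 GC boxes. Ptgfr (52.0%) and Ptger3 (56.9%) lie near the median of all promoters (52.4%) and hold 1 GC box each. Of 7 receptor promoters in the RefSeq table, 4 held a GC box and 2 a CCAAT box, against 32.7% and 33.8% of all promoters. On neither strand did any of the 7 hold the TATA box TATAAA, found in 12.4% of all promoters, or the core TGACG of the cAMP response element, found in 17.8%. The same was true of the AP-1 site TGANTCA, found in 6.75%, and of the E-box CAGCTG, found in 13.0%. A match is a description of these letters and does not show that a factor binds there. In the same annotation Ptgdr and Ptger2 are neighbouring coding genes on chromosome 14.

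Levels are log2 intensities relative to the 75th percentile of the array, so a level of 0 is the brightness of the probe at that rank. Between 49.99% and 76.34% of spots were well above background on an array. Skeletal muscle markers were bright in stroma, with 14 of 14 passing the test as higher than in tumor. Wild-type stroma 65 and 82 lay among the tumor arrays on the first principal component, which held 58.8% of the variance. In a check of Xist against the Y-linked Ddx3y, some arrays went against their sex label. These were 1 wild-type stroma array (9), 2 knockout stroma arrays (95 and 99) and 2 knockout tumor arrays (95 and 99). Several results are therefore also given without wild-type stroma 65 and 82, and some without the arrays against their sex label.

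**Figure D1:**
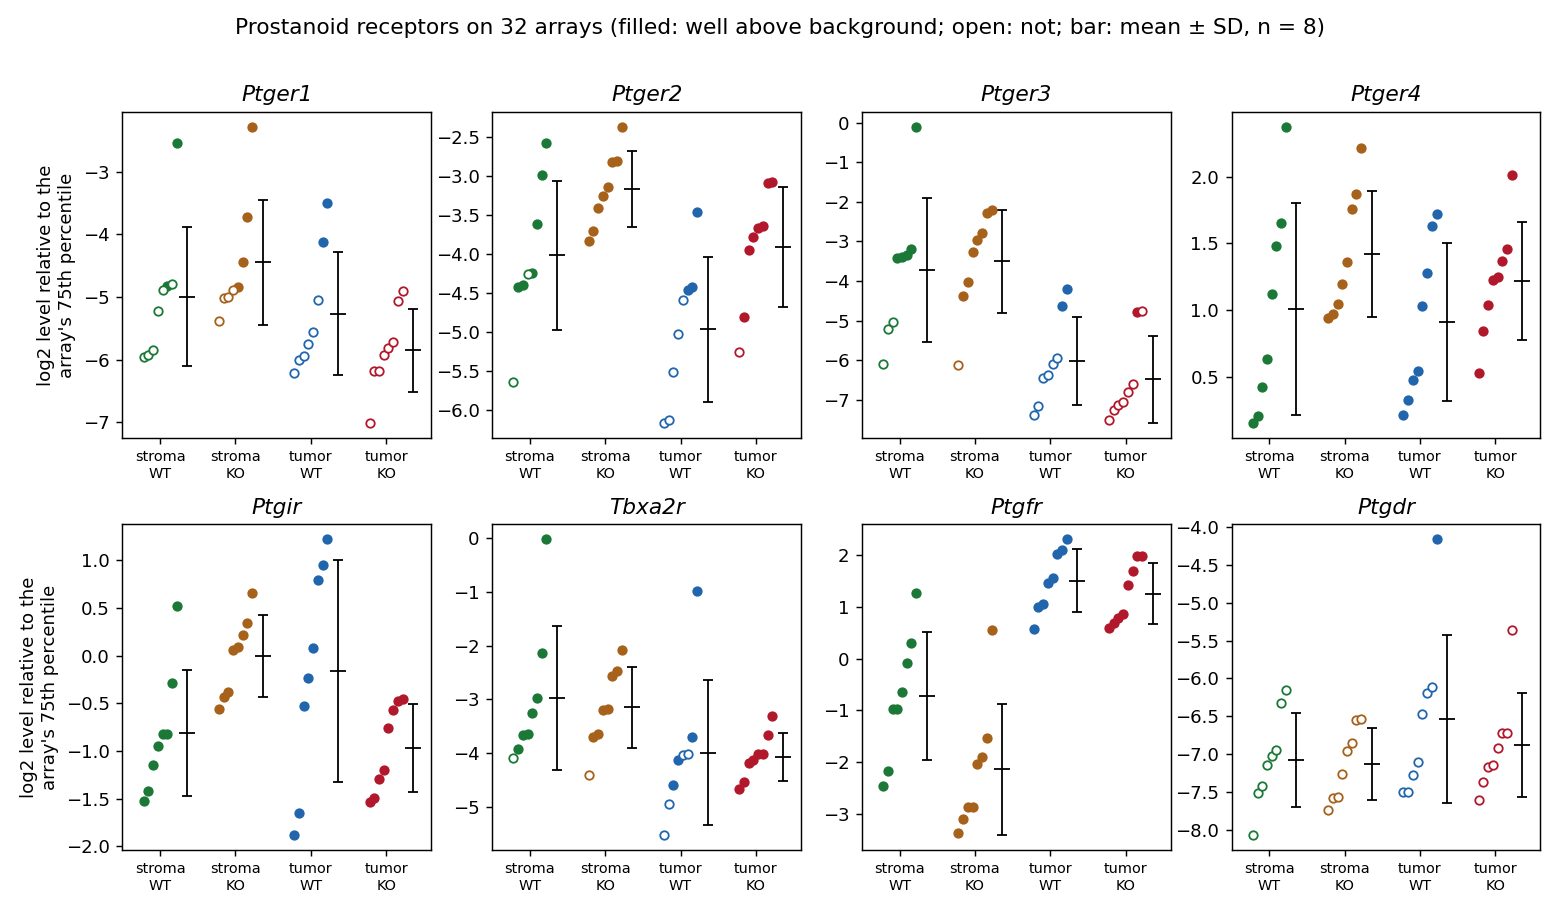
Log2 level of the 8 receptors on every array, by group, relative to the array's 75th percentile, with its own vertical scale in each panel. Filled points were well above background and open points were not, and the bar gives the mean and SD of the 8 arrays. Ptger4, Ptgir and Ptgfr were well above background on all 32 arrays, Ptger3 mostly in stroma, and Ptgdr on 1 array only.

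The tissue divided the family. Stroma held more signal for Ptger3 and less for Ptgfr, 7.00-fold, while Ptger4 and Ptgir did not pass the test. Smaller differences, all higher in stroma, passed for Ptger1, Ptger2 and Tbxa2r. Thus 5 of 7 receptors tested passed (71.4%), 4 higher and 1 lower in stroma, beside 62.8% of all 27096 features tested (25.7% higher and 37.1% lower). The share called is near that of all features, so the count is no result about the family. The median difference over the 7 was 0.83 and over all features -0.143, or -0.018 when the percentile was taken over bright probes only. These are bulk samples, in which fewer cells of a type and less RNA per cell cannot be told apart.

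Ptgfr, the receptor through which prostaglandin F contracts smooth muscle and ends the life of the corpus luteum, was brighter in tumor. In wild-type tumor it ran from 0.57 to 2.31 with a median of 1.51, and in knockout tumor from 0.59 to 1.99 with a median of 1.15. In wild-type stroma it was -0.09, -2.18, -0.98, -0.98, -0.64, -2.46, 0.31 and 1.27 on arrays 1, 5, 45, 68, 4, 9, 65 and 82, and in knockout stroma 0.56, -3.11, -2.86, -3.37, -2.03, -2.87, -1.90 and -1.53 on arrays 12, 49, 51, 59B, 15, 81, 95 and 99. All but 1 of the 16 stroma arrays lay below every tumor array, and the exception, wild-type stroma 82, is an array that lay among the tumor arrays on the first component. Within the knockout the tissues only just failed to overlap, with stroma 12 at 0.56 and tumor 15 at 0.59. The share of all features with as little overlap was not counted, here and for Ptger3. Stroma minus tumor was -2.81 ± 0.35 (SE, 95% confidence interval -3.52 to -2.10, limma adjusted p = 2.23e-07). The difference was negative on 6 of 6 slides (-3.53 to -1.32), and it was -3.10 ± 0.34 without wild-type stroma 65 and 82. The slide differences took no account of genotype, here and for the other receptors. Slides 1, 5 and 6 lacked either genotype in tumor, and stroma on slide 1 was all wild type. On these slides tissue and host genotype are partly mixed. Slide 1 gave -2.23 for Ptgfr and the highest slide values of Ptger3 (4.68), Tbxa2r (2.37) and Ptger2 (1.31).

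Ptger3, which in many tissues counters the Gs-coupled receptors, had the opposite pattern. In wild-type stroma it ran from -6.09 to -0.11 with a median of -3.40, and in knockout stroma from -6.11 to -2.21 with a median of -3.12. In wild-type tumor it ran from -7.37 to -4.20 (median -6.23) and in knockout tumor from -7.50 to -4.75 (median -6.92). It was well above background on 12 of 16 stroma arrays but on only 3 of 16 tumor arrays, so the tumor level is close to the limit of the array, and Ptger3 entered the test through stroma. The 4 stroma arrays where it was not were wild-type 45, 65 and 82 and knockout 59B, and 11 stroma arrays lay above every tumor array. Stroma minus tumor was 2.64 ± 0.45 (SE, interval 1.71 to 3.57, limma adjusted p = 1.51e-05), positive on 6 of 6 slides (1.03 to 4.68). In the fit with no filter its adjusted p was 2.41e-05. With no tumor value allowed under its array's background limit, an alternative chosen after seeing the data, the difference was 0.95 (1.93-fold). It was 0.93 ± 0.23 (adjusted p = 0.000841) after normexp with quantile scaling and 3.12 ± 0.40 without wild-type stroma 65 and 82. The dimmer of its 2 probes gave 1.41, and the probes followed each other over the stroma arrays (Pearson r = 0.89 over 16 arrays, a description) but not over the tumor arrays (-0.05). The dimmer probe was well above background on 2 wild-type and 4 knockout stroma arrays. In tumor it was so on 0 wild-type arrays and 1 knockout array, so most of its values lie near background.

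Tbxa2r, the receptor that platelets and smooth muscle use to answer thromboxane, was higher in stroma. Wild-type stroma ran from -4.08 to -0.02 (median -3.44) and knockout stroma from -4.41 to -2.08 (median -3.18). Wild-type tumor ran from -5.52 to -0.98 (median -4.08) and knockout tumor from -4.67 to -3.31 (median -4.07). The groups overlapped, and 15 of 16 stroma arrays lay above the tumor median. Stroma minus tumor was 0.97 ± 0.34 (SE, interval 0.27 to 1.66, limma adjusted p = 0.0149), positive on 6 of 6 slides (0.58 to 2.37). It was 1.16 ± 0.35 without wild-type stroma 65 and 82, but 0.36 (adjusted p = 0.114) after normexp correction with quantile scaling and 0.59 (adjusted p = 0.30) in female hosts alone.

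Ptger2, the gene deleted in the hosts, gave a dim signal. It ran from -5.65 to -2.58 in wild-type stroma (median -4.26), from -3.84 to -2.37 in knockout stroma (median -3.20), from -6.17 to -3.46 in wild-type tumor (median -4.81) and from -5.26 to -3.08 in knockout tumor (median -3.72). It was well above background on 6, 8, 3 and 7 of 8 arrays in that order. The knockout arrays were thus not the dimmer ones. No source used here says where the probe lies relative to the deletion, so the genotype labels cannot be checked with it. Stroma minus tumor was 0.85 ± 0.29 (SE, interval 0.26 to 1.43, limma adjusted p = 0.0122), positive on 6 of 6 slides (0.22 to 1.31). It was 1.0 ± 0.29 without wild-type stroma 65 and 82, 0.28 (adjusted p = 0.0565) with normexp and quantile scaling and 0.51 (adjusted p = 0.345) in male hosts alone.

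Ptger1, a receptor for prostaglandin E2 that raises calcium, was near background throughout. Its highest values were -2.54 in wild-type stroma, -2.29 in knockout stroma, -3.51 in wild-type tumor and -4.91 in knockout tumor, and it was well above background on 2, 4, 2 and 0 of 8 arrays. The tested difference, 0.83 ± 0.34 (limma adjusted p = 0.0325), was therefore drawn from few measured values. With normexp and quantile scaling the tissue difference was 0.18 (adjusted p = 0.16), without a filter its adjusted p was 0.0511, and leaving out wild-type tumor 1, 9 or 45 or knockout tumor 51 or 95 moved the adjusted p to between 0.0507 and 0.0544.

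Ptger4 and Ptgir, both well above background on all 32 arrays, did not pass between tissues. EP4 mediates much of the action of prostaglandin E2 on immune cells, and IP relaxes vessels and restrains platelets. Ptger4 ran from 0.16 to 2.37 in stroma and from 0.22 to 2.01 in tumor, a difference of 0.15 ± 0.21 (interval -0.28 to 0.58, limma adjusted p = 0.546). Ptgir ran from -1.52 to 0.66 in stroma and from -1.88 to 1.22 in tumor, a difference of 0.16 ± 0.20 (interval -0.24 to 0.56, adjusted p = 0.489). The ranges nearly coincide for Ptger4, and its second probe gave 0.05. In female hosts alone Ptgir passed as higher in stroma (0.66, adjusted p = 0.0414), whereas in male hosts it was at -0.34.

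Ptgdr, the DP1 receptor, was well above background on 1 of 32 arrays, wild-type tumor 5 at -4.16, and did not pass the filter. In the fit with no filter its stroma minus tumor difference was -0.40 (limma adjusted p = 0.292). That array also had the largest number of outlier spots and the highest share of spots above background. Ptgdr2, a receptor of type 2 helper T cells, eosinophils and other cells, was well above background on 2 wild-type and 3 knockout arrays of stroma and on 6 wild-type and 3 knockout arrays of tumor. Its tissue difference was -0.48 ± 0.26 (limma adjusted p = 0.112). These values come from the brighter of its 2 probes. The other was well above background on 0 arrays of each group. Between the probes Pearson r was 0.05 in stroma and 0.43 in tumor (16 arrays each, a description).

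**Figure D2:**
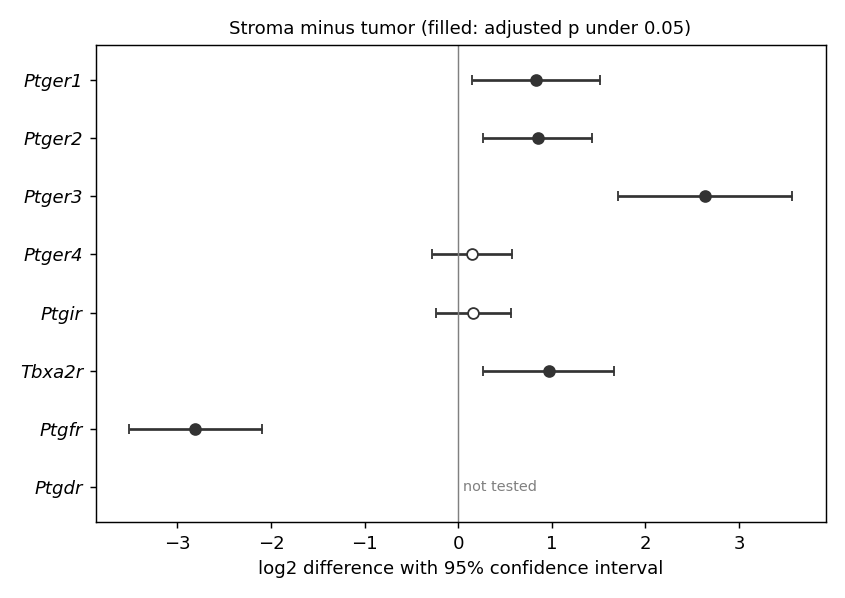
Stroma minus tumor difference of each receptor on the log2 scale with its 95% confidence interval, from the fit over 32 arrays. Filled points passed at an adjusted p under 0.05. Ptger3 (2.64) and Ptgfr (-2.81) lie furthest from 0, on opposite sides, and Ptgdr was not tested.

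Lists of marker genes moved between the tissues as well. Of the markers tested, 12 of 12 for endothelium, 9 of 11 for smooth muscle and pericytes, 11 of 12 for adipocytes, 8 of 9 for Schwann cells and 10 of 13 for macrophages passed as higher in stroma, with median differences of 1.40, 1.57, 4.68, 3.06 and 1.56. Their part in the receptor differences was not tested. The summed linear level ran, over the stroma arrays and the tumor arrays, from 40.5 to 215 and from 26.7 to 67.9 for endothelium, from 47.0 to 676 and from 28.7 to 122 for smooth muscle and pericytes, and from 27.6 to 415 and from 33.2 to 180 for macrophages. It ran from 9.41 to 975 and from 3.86 to 59.1 for adipocytes, from 4.77 to 78.9 and from 3.36 to 11.6 for Schwann cells and from 97.7 to 7860 and from 3.68 to 1510 for skeletal muscle. Des (mean 6.33 in stroma and 0.47 in tumor) is in both the smooth muscle and the skeletal muscle list and counts in both sums. In stroma 0 markers of these 6 lists were below background on every array. Of 10 platelet and megakaryocyte markers, cells that carry TP, 1 passed as higher (median 0.12). Their summed level ran from 9.84 to 71.1 in stroma and from 5.45 to 86.4 in tumor, and the platelet tubulin Tubb1 was well above background on 1 stroma and 1 tumor array. For cell cycle genes the direction was that of Ptgfr: 13 of 13 passed as lower in stroma (median -2.64). Their summed level ran from 15.2 to 311 in stroma and from 178 to 362 in tumor.

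The ligands' enzymes differed between the tissues in both directions. Of 12 synthesis genes 5 passed as higher and 4 as lower in stroma (median 0.04). Cbr1, a carbonyl reductase that can turn prostaglandin E2 into F2 alpha, was higher in stroma by 2.65 ± 0.29. Ptgs2, the inducible cyclooxygenase, and Pla2g4a, the phospholipase that frees arachidonic acid, were lower in stroma (-3.48 ± 0.56 and -2.0 ± 0.34). Of 5 transport and breakdown genes 2 passed as higher, Hpgd (3.94 ± 0.47), the dehydrogenase that inactivates prostaglandins, and Abcc4 (0.81 ± 0.13), which exports them. Ptgr1, a prostaglandin reductase, passed as lower (-0.98 ± 0.31).

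Downstream of the receptors, the Gs and cAMP list had 11 of 28 genes higher and 10 lower in stroma. Its smallest p-values belonged to the adenylyl cyclase Adcy2 (4.73 ± 0.48) and the phosphodiesterases Pde3a (2.51 ± 0.33) and Pde3b (-1.70 ± 0.22). Of the Gq and calcium list, which serves FP and TP, 5 of 15 were higher and 4 lower, among them the phospholipases Plcb4 (2.01 ± 0.26) and Plcb3 (-1.10 ± 0.14) and the calcium channel of the endoplasmic reticulum Itpr3 (-1.16 ± 0.15). Of 4 Gi genes, through which EP3 acts, Gnai1 was higher (4.24 ± 0.46) and Gnai3 lower (-1.20 ± 0.17).

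Among genes that end receptor signals, 4 of 7 kinases and arrestins passed as higher in stroma and 1 as lower. The arrestin Arrb1 was at 1.45 ± 0.20, and the receptor kinases Grk4 and Grk6 were at 2.27 ± 0.37 and -1.10 ± 0.16. For RGS proteins, which speed up the shut-off of G proteins, the counts were 4 of 9 higher and 3 lower, with Rgs18 at 2.59 ± 0.34, Rgs5 at 2.43 ± 0.27 and Rgs16 at -2.96 ± 0.46. Every difference named in these lists passed limma's test at an adjusted p under 0.05, as did 62.8% of all features, so no list stands apart by its count.

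The next comparison asked whether loss of EP2 in the host went with a change in the other receptors. No receptor passed in either tissue, and neither did any other feature: 0 of 24772 in stroma and 0 of 23730 in tumor (0%) in the limma fits, although 6998 (28.2%) and 789 (3.32%) had an unadjusted p under 0.05. The count in stroma changed with the arrays used. It was 5116 when wild-type stroma 4 was left out, 8323 when wild-type 9 was, 8 when knockout 12 was and 5575 with the arrays against their sex label removed. In stroma 4 of the 6 receptors tested were higher and 2 lower in the knockout (median 0.32, against 0.076 over all features), and in tumor 2 of 5 were higher (median -0.08, against 0.005).

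For Ptgir the sign of the knockout difference was opposite in the tissues. In stroma the wild-type arrays 1, 5, 45, 68, 4, 9, 65 and 82 read -1.52, -0.29, -1.42, -0.82, 0.52, -0.95, -0.82 and -1.15, and the knockout arrays ran from -0.56 to 0.66. All 8 knockout stroma arrays lay above the wild-type median, and the overlap lay with wild-type 4 and 5. How many of all features lay to one side in this way was not counted in either tissue. In tumor the wild-type arrays in the same order read -1.88, -0.53, -0.23, -1.65, 0.08, 0.79, 0.95 and 1.22, and the knockout arrays ran from -1.53 to -0.45, all 8 below the wild-type median. Knockout minus wild type was 0.81 ± 0.29 in stroma (SE, interval 0.20 to 1.42, limma adjusted p = 0.123) and -0.81 ± 0.26 in tumor (interval -1.36 to -0.26, adjusted p = 0.976). Within slides it was positive on 5 of 5 slides in stroma (0.50 to 1.42) and negative on 3 of 3 in tumor (-1.70 to -0.34). A slide held few arrays, and on no slide were the genotypes balanced for labelled sex, which holds for the slide counts of every receptor. On slide 2 the wild-type stroma array was male and the knockout one female, and the tumor arrays were the other way round. On slide 4 the wild-type stroma array was labelled male and the knockout one female.

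The test of that contrast between tissues gave 1.62 ± 0.39 for Ptgir (SE, interval 0.82 to 2.43, limma adjusted p = 0.117), the 57th smallest p of 27096 features. It did not pass, and 0 of 27096 features (0%) did, with 5720 (21.1%) at an unadjusted p under 0.05. The call depended on single arrays: the difference passed without wild-type stroma 4 (1.81, adjusted p = 0.00611), without wild-type stroma 9 (1.56, adjusted p = 0.00971), without knockout stroma 12 (1.61, adjusted p = 0.0389) and without the 5 arrays against their sex label (1.51, adjusted p = 0.0487). In these fits many other features passed as well, 2507 of 26889, 5275 of 26955, 970 of 26919 and 2129 of 26489 in that order. Without wild-type stroma 65 and 82 it was 1.43 (adjusted p = 0.507). Leaving out each array in turn gave 1.48 to 1.81.

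Neutrophil markers were set beside Ptgir in tumor. Wild-type tumor 9, 65 and 82, the highest in Ptgir, also had the highest mean levels of the 11 neutrophil markers, at 1.64, 1.62 and 2.25, against -1.01 to 0.33 on the other 5 wild-type and -1.39 to 0.26 on the knockout tumor arrays. Wild-type tumor 1, the lowest in Ptgir (-1.88), was not low in the list (0.21). All 10 neutrophil markers tested were lower in knockout tumor (median -1.27), with 0 passing the test. The summed level ran from 73.7 to 544 in wild-type and from 60.6 to 110 in knockout tumor, and no marker of the list was below background on every tumor array. In stroma the same list showed 6 higher and 4 lower (median 0.09). In tumor the platelet and megakaryocyte list was also highest on wild-type tumor 9 and 65 (-1.47 and -1.58). Wild-type tumor 82, at -2.32, lay below wild-type tumor 5 (-2.03) in that list. Of 9 such markers tested 7 were lower in knockout tumor (median -0.56), with 0 passing. The part of either kind of cell in the Ptgir values was not tested.

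Ptgfr had the largest of the knockout differences in stroma. Of the 8 knockout arrays 7 lay below the wild-type median and 4 below every wild-type array, while knockout stroma 12, at 0.56, lay above all but 1 of the wild-type arrays. Knockout minus wild type was -1.42 ± 0.61 (SE, interval -2.72 to -0.12, limma adjusted p = 0.154), negative on 4 of 5 slides (-3.17 to 3.02). It passed without wild-type stroma 9 (-1.77, adjusted p = 0.0277) and was -0.83 ± 0.62 without wild-type stroma 65 and 82. Without the arrays against their sex label it was -1.95 ± 0.66 (limma adjusted p = 0.0516). In tumor it was -0.26 ± 0.28, and the contrast between tissues was -1.16 ± 0.69 (adjusted p = 0.327).

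Cell cycle genes had the direction of Ptgfr in stroma. All 13 were lower in knockout stroma (median -1.51), with 0 passing, and their summed level ran from 15.2 to 311 in wild-type and from 19.1 to 123 in knockout stroma. The arrays highest in Ptgfr, wild-type 82 (1.27), knockout 12 (0.56) and wild-type 65 (0.31), had mean cell cycle levels of 4.05, 2.69 and 3.91, and knockout 12 was the highest of the knockout stroma arrays in both. Wild-type stroma 9, the lowest wild-type array in Ptgfr (-2.46), was also the lowest in the list (-3.29). Other arrays went another way: wild-type 45 and 68 had list levels of 3.30 and 3.24 with Ptgfr at -0.98 on each, and wild-type 5 had 2.70 with Ptgfr at -2.18. In tumor all 13 were higher in the knockout (median 0.34). The part of dividing cells in the Ptgfr values was not tested.

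**Figure D3:**
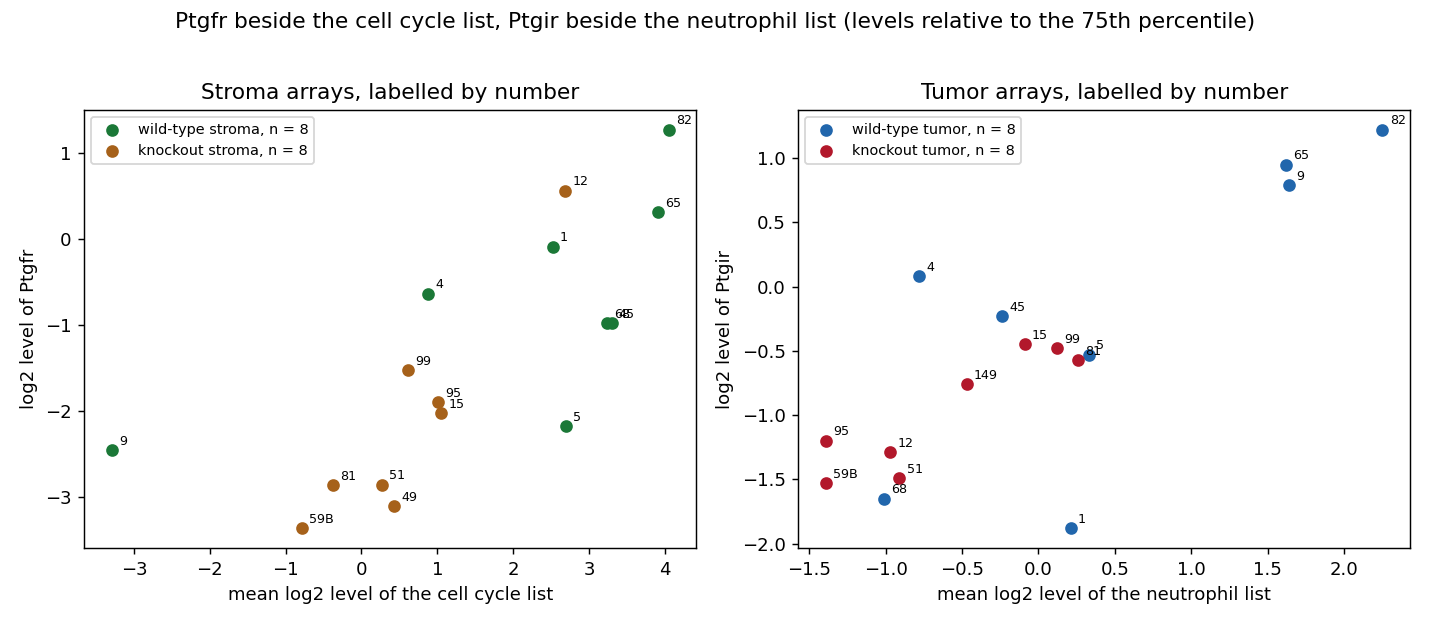
Left, log2 level of Ptgfr against the mean log2 level of 13 cell cycle genes on the 16 stroma arrays. Right, log2 level of Ptgir against the mean log2 level of 11 neutrophil markers on the 16 tumor arrays, each array marked with its number. Wild-type stroma 65 and 82 and knockout stroma 12 are high on both left axes, and wild-type tumor 9, 65 and 82 on both right axes.

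Ptger2 had the largest knockout difference of the 5 receptors tested in tumor, although only 3 of 8 wild-type tumor arrays were well above background for it. For Ptger2 and Ptger4 all 8 knockout stroma arrays lay above the wild-type median, as for Ptgir. In tumor 7 of 8 knockout arrays did so for Ptger2 and for Ptger4. The share of all features placed in this way was not counted, so these placements are no result about the receptors. In stroma 28.2% of all features had an unadjusted limma p under 0.05. Ptger2 was at 0.85 ± 0.37 in stroma (limma adjusted p = 0.158) and 1.06 ± 0.41 in tumor (adjusted p = 0.976), with the knockout higher on 5 of 5 and 3 of 3 slides. It passed in stroma without wild-type stroma 4 (1.08, adjusted p = 0.0384), as did Ptgir (0.99, adjusted p = 0.0175), and was 0.54 without wild-type stroma 65 and 82. Without the arrays against their sex label Ptger2 was at 0.99 in stroma and 1.19 in tumor and did not pass. Ptger4, the Gs-coupled partner of EP2 for the same ligand, was at 0.41 ± 0.34 in stroma (interval -0.30 to 1.13) and 0.31 ± 0.24 in tumor (interval -0.19 to 0.82), intervals that include no change and a rise of more than 1.5-fold. Ptger3 was at 0.22 ± 0.77 and Tbxa2r at -0.19 ± 0.53 in stroma, and Tbxa2r at -0.08 ± 0.39 in tumor. For Ptger3 the sign turned without wild-type stroma 65 and 82 (-0.73).

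The contrast between tissues was 1.13 ± 0.67 for Ptger1, 0.68 ± 0.91 for Ptger3, 0.10 ± 0.42 for Ptger4, -0.11 ± 0.68 for Tbxa2r and -0.21 ± 0.57 for Ptger2 (limma adjusted p from 0.322 to 0.937). In all, 0 of 7 passed. Of the signalling, synthesis and breakdown genes in the lists described, 0 passed for genotype in either tissue, and the medians of these lists lay between 0.09 and 0.33 in stroma and between -0.04 and 0.15 in tumor.

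**Figure D4:**
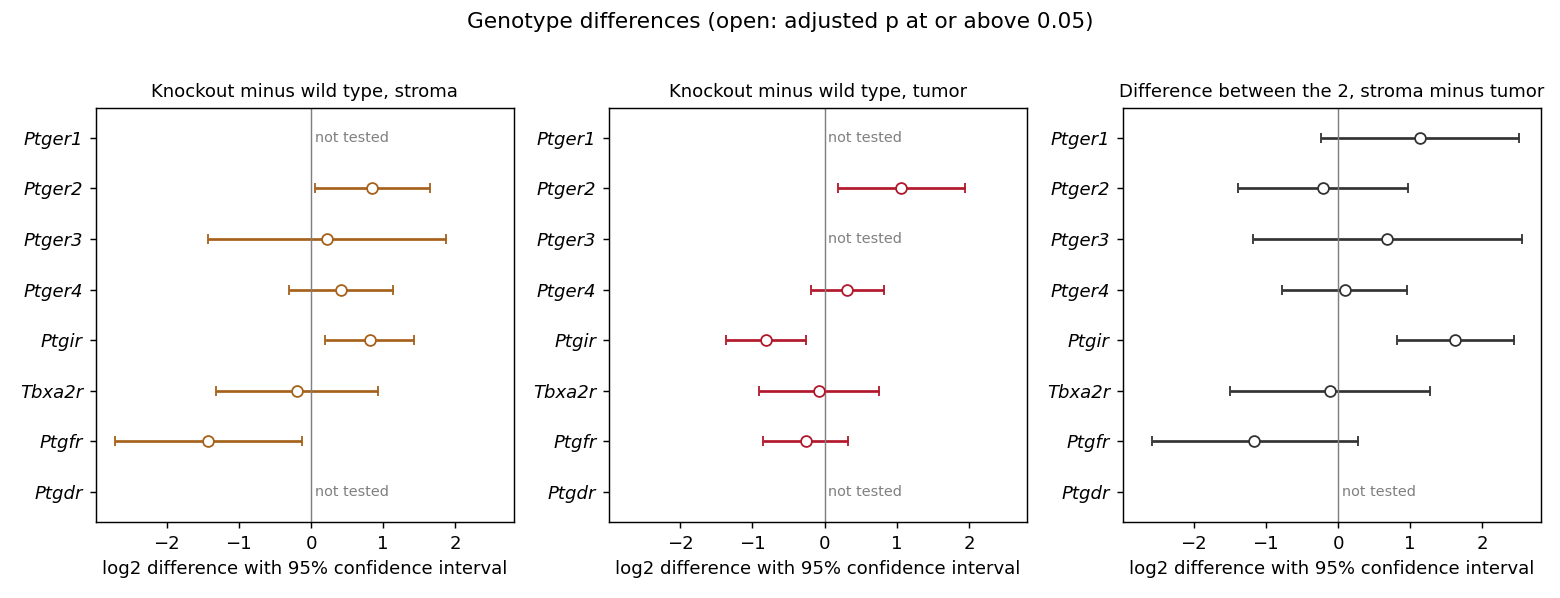
Knockout minus wild type difference of each receptor in stroma and in tumor, and the difference between those contrasts, all on the log2 scale with 95% confidence intervals. All points are open because none passed. Ptgir lies at 0.81 in stroma and -0.81 in tumor, and its contrast between tissues is at 1.62.

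The order of the group means was set beside their spread. This is a description and not a test, and it compares only neighbours in the order. Ptgfr was highest in wild-type tumor (1.51 ± 0.61, SD, n = 8), followed by knockout tumor (1.25 ± 0.59), wild-type stroma (-0.72 ± 1.24) and knockout stroma (-2.14 ± 1.27). The tumor groups did not differ beyond their spread, and the other gaps (1.97 and 1.42) exceeded the larger SD. The gap of 1.42 between the genotypes in stroma did not pass limma's test (adjusted p = 0.154). For Ptger3 the order was knockout stroma (-3.50 ± 1.30), wild-type stroma (-3.72 ± 1.82), wild-type tumor (-6.02 ± 1.11) and knockout tumor (-6.48 ± 1.10), with only the gap between tissues (2.30) beyond the larger SD. For Ptgir it was knockout stroma (0.00 ± 0.43), wild-type tumor (-0.16 ± 1.16), wild-type stroma (-0.81 ± 0.66) and knockout tumor (-0.97 ± 0.46). No neighbours in that order differed beyond their spread, and this was so for Ptger1, Ptger2, Ptger4, Tbxa2r and Ptgdr too. Groups further apart in the order were not compared in this way.

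Within stroma several receptors varied together from array to array. Among the 6 receptors well above background on at least 12 stroma arrays, 11 of 15 pairs had a positive Pearson r (-0.40 to 0.81). After adjustment over 21 relations, 15 in stroma and 6 in tumor, 3 pairs passed by both Pearson's r and Spearman's rank correlation, each tested with 100000 permutations over 16 arrays. These were the pairs among Ptger2, Ptger4 and Ptgir, and whether they differ from the other pairs was not tested.

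For Ptger2 and Ptger4 the relation was r = 0.80 (permutation p = 0.00012, adjusted 0.0021) and a Spearman correlation of 0.87 (p = 3e-05, adjusted 0.00063). Without the 2 arrays farthest from the median of Ptger2 r was 0.84, and it was 0.74 over the 8 wild-type and 0.91 over the 8 knockout arrays. For Ptger4 and Ptgir r was 0.81 (permutation p = 0.0002, adjusted 0.0021) and Spearman's correlation 0.77 (p = 0.00067, adjusted 0.00469), with r = 0.71 without the 2 farthest arrays, 0.88 in wild type and 0.67 in the knockout. For Ptger2 and Ptgir r was 0.76 (permutation p = 0.0006, adjusted 0.00352) and Spearman's correlation 0.79 (p = 0.00045, adjusted 0.00469), with r = 0.73 without the 2 farthest, 0.59 in wild type and 0.86 in the knockout. On the 9 stroma arrays of the second scan day the 3 values were 0.83, 0.94 and 0.84, and on the 7 of the first day they were lower, 0.50, 0.35 and 0.37. Without wild-type stroma 65 and 82 they were 0.90, 0.81 and 0.77 in the same order.

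Such relations were shared with many other genes. Of 12077 genes well above background on all stroma arrays, 2.54% had an r with Ptger2, and 4.34% an r with Ptger4, at least as high as that of the pair. For Ptger4 and Ptgir the shares were 3.74% and 1.65% of 12076 genes, for Ptger2 and Ptgir 3.40% and 3.46%, and for Ptger3 and Tbxa2r 0.422% and 0.745% of 12078. Ptger3 and Tbxa2r also varied together (r = 0.77, permutation p = 0.00067, adjusted 0.00352), but the relation did not pass by rank (Spearman correlation 0.57, adjusted p = 0.0778). Its r was 0.47 without the 2 farthest arrays, 0.79 over the wild-type and 0.77 over the knockout arrays, 0.90 and 0.71 on the first and second scan day and 0.83 without wild-type stroma 65 and 82. Ptger4 and Tbxa2r also passed by Pearson's r (0.64, permutation p = 0.00492, adjusted 0.0207) but not by rank (0.58, adjusted p = 0.0778). Wild-type stroma 4 held the highest wild-type stroma value for 5 of the 8 receptors, Ptger1, Ptger3, Ptger4, Ptgir and Tbxa2r. Ptgfr had r from -0.40 to 0.13 with the other receptors in stroma. In tumor 0 of 6 pairs passed (r from -0.30 to 0.36). The unadjusted permutation p was 0.168 or more for Pearson's r and 0.129 or more for Spearman's correlation.

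**Figure D5:**
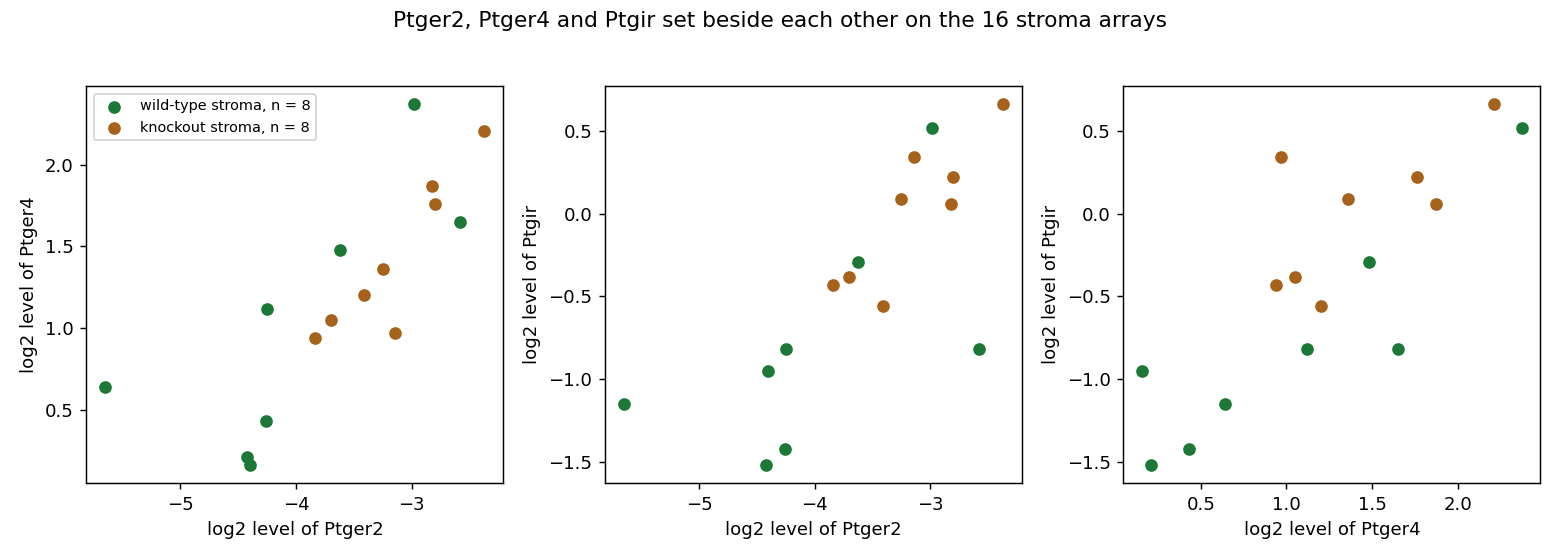
Log2 levels of Ptger2, Ptger4 and Ptgir set against each other on the 16 stroma arrays, coloured by genotype (8 arrays each). Points rise from lower left to upper right in each panel (r = 0.80, 0.76 and 0.81).

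The genes whose levels followed each receptor most closely were sought among genes bright enough on every array of that tissue (12077 in stroma for Ptgir, 12213 in tumor). It is a description over 16 arrays that differ in marker levels. In stroma the mean level of the skeletal muscle markers ran from 0.70 to 8.69. In stroma Ptger2 was most like Serpina3n, a protease inhibitor of the acute phase (r = 0.94), Lbp, the lipopolysaccharide-binding protein (0.93), and Rassf2 (0.92). Ptger4 was most like Glis3, Crybg1 and Sirpa (0.96 each), the last an inhibitory receptor of macrophages and other myeloid cells. Ptgir was most like the sulfatase Arsg (0.96), Isyna1, which makes inositol phosphate (0.94), and the sialyltransferase St3gal1 (0.92).

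Ptger3 was most like the glutamate transporter Slc1a3 (0.86), the sulfotransferase Chst1 (0.84) and Smoc1 (0.84), and Ptgfr most like the mitochondrial folate enzyme Aldh1l2 (0.94), the tetraspanin Cd9 (0.92) and Pck2 (0.90), a mitochondrial enzyme of gluconeogenesis. Tbxa2r was most like Gask1b (0.93), Dazap1 (0.92) and Samd14 (0.90), but with lower rank correlations (Spearman 0.79, 0.79 and 0.65).

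In tumor the lists held other names. Ptgir was most like Cpne7 (0.93) and Stfa2 and Cstdc4 (0.90 each), both of the cystatin superfamily of protease inhibitors, whose closely related copies a probe may not separate. Ptger4 was most like Ninj1, which acts in membrane rupture (0.88), Tnfrsf1a, the tumor necrosis factor receptor (0.87), and Cdc42ep3 (0.84). Ptgfr was most like Gpm6b (0.92), the kinesin Kif3a (0.91) and Septin10 (0.91). For Tbxa2r the leading names were Mastl (0.86), Lat (0.85) and Cdc14a (0.84), with Spearman correlations of 0.39, 0.71 and 0.42. The single high value on wild-type tumor 5 (-0.98) bears on these.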

How the data were processed

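Cy3-labelled cRNA from 32 samples was read on one-colour Agilent arrays. The submitters' processing notes name Agilent Feature Extraction, version 10.7.3.1. Per the file headers, the deposited scanner files hold processed signals as a linear intensity. The authors' series matrix gives log2 values, scaled and centred per probe within a tissue. A tolerance of 0.05 covered 99.8% of its stroma and 99.3% of its tumor values when set against the same quantity computed here, with the same direction, and its column medians ran from -0.312 to 0.558. It was used as an alternative only.

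Replicate spots were averaged without outlier spots, and log2 levels were taken relative to each array's 75th percentile (402 to 1133) over 56605 probes. RefSeq (GRCm38.p6) named 32994 probes, and the brightest probe stood for a name. Features well above background on at least 8 arrays, lacking at most 2 values, were fitted with limma 3.58.1 in R 4.3.3 with 1 mean per group and sex, Benjamini-Hochberg adjusted over all of them, and called under 0.05. Arrays, not depth, limit the precision. The code was tested on simulated data.

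Receptors, gene lists, likeness rule and alternatives were chosen with earlier results of these data known, and the receptor pairs were correlated after their levels had been seen. Partner genes named are the 3 with the smallest p per list, and genes most alike are the 3 with the highest r. Numbers shared by stroma and tumor arrays may mark the same host, which was not settled. The main fits treat all arrays as independent. Arrays lay on 6 slides read on 2 scan days, both genotypes sharing 5 slides in stroma and 3 in tumor. Python 3.11.15 served for promoters and figures. One list of signalling genes is not reported here.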

Additional observations from a re-analysis of the deposited data

Results flagged for a closer look

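In 36 sets of 8 arrays (8 receptors and Ptgdr2 in 4 groups) an array at either end that stood far from its nearest neighbour, relative to the range of the group, was sought. For independent values from a normal distribution chance gives about 1 in 20 such sets, and 6 were found. The sets share the same 32 arrays and some values lie near background, so the 6 cannot be judged against that rate. Ptger1 on wild-type stroma 4 was at -2.54, with the next array at -4.80. Tbxa2r on wild-type tumor 5 was at -0.98, with the next at -3.70, and Ptgdr on the same array was at -4.16, with the next at -6.11. That array had 483 outlier spots, the most of all. Ptgfr on knockout stroma 12 was at 0.56, with the next at -1.53. Ptgdr on knockout tumor 99 was at -5.36, with the next at -6.72, and Ptgdr2 on knockout tumor 95 was at -2.35, with the next at -4.35.

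For Ptgir all 8 knockout arrays lay above the wild-type median in stroma and all 8 below it in tumor. How many of all features show this placement was not counted. The difference between the tissues, 1.62, was tested with limma's interaction contrast and did not pass (adjusted p = 0.117).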

How the results depend on the processing

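Ptger3 and Ptgfr passed between the tissues under every alternative in which they were tested, and no receptor passed for genotype in tumor under any. Without the arrays against their sex label, stroma minus tumor was -2.65 for Ptgfr, 2.76 for Ptger3, 1.08 for Tbxa2r and 0.86 for Ptger2. Each of these passed. Receptors passing in stroma for genotype (0 in the text) numbered 4 with array weights, under which 16146 of all features passed, 2 with all 32 arrays in 1 fit (4337 features) and 0 to 2 without each array (up to 8323 features). Between the tissues (5) they numbered 2 of 7 tested after normexp with quantile scaling (17272 of 27096 features), 1 of 3 with the filter on all arrays (10902 of 16734), 3 of 5 in female hosts (14393 of 24804) and 3 of 6 in male hosts alone (9523 of 23642). For genotype by tissue (0) they numbered 2 with array weights (13192 of 27096 features), 1 without arrays against their sex label (2129 of 26489) and 0 to 1 without each array (up to 5275 features).

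Signs turned for knockout differences in stroma: Ptger3 with normexp (-0.025), without wild-type stroma 65 and 82 (-0.73) and in females (-0.051), and Tbxa2r with array weights (0.053), slide as a fixed block (0.15) and in females (0.29). In tumor they turned for Ptgfr in females (0.24) and for Tbxa2r with quantile scaling (0.025), array weights (0.38) and in males (1.02). Between the tissues they turned in males for Ptger4 (-0.09) and Ptgir (-0.34). For genotype by tissue they turned for Ptger2 with array weights (0.11), Ptger3 with normexp (-0.11) and without wild-type stroma 65 and 82 (-0.27), Ptger4 without arrays against their sex label (-0.028), and Tbxa2r with bright probes (0.049), a fixed slide block (0.42) and in females (1.47). Leaving out each array gave -0.18 to 0.81 for Ptger3, -0.37 to 0.24 for Tbxa2r in stroma and -0.23 to 0.29 in tumor, and for genotype by tissue -0.45 to 0.015 for Ptger2, -0.056 to 0.31 for Ptger4 and -0.48 to 0.32 for Tbxa2r. The cause was not tested.

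With the replicate number as a block (replicate block, consensus correlation 0.107) 5 receptors passed between the tissues and 0 for genotype by tissue, where Ptgir stood at 1.63 (adjusted p = 0.0713). Of 15 shared numbers 9 had deviations correlated over 0.1 (-0.044 to 0.343) and 3 correlated best with their own number. The Xist and Ddx3y pattern was the same in both tissues for 14 of the 15. Knockout 95 and 99 went against their sex label in stroma and in tumor alike, as arrays of 1 host would. The rule used asked for a correlation over 0.1 in every pair, so the numbers were not taken as pairs. Whether equal numbers mark the same host was not settled by this rule. No depth is defined for arrays, and signals of Ptger1, Ptgdr and tumor Ptger3 lie at the background limit.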
